A study of Mus musculus with 8 samples.

Results

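The 10 genes described here encode DNA-binding subunits of the transcription factor NF-kB and proteins that regulate it. The subunits are Rela, Relb, Nfkb1 and Nfkb2. The regulators include the inhibitor of kB (IkB) proteins Nfkbia, Nfkbib and Nfkbie, and the IkB-related nuclear cofactor Bcl3. The induced ubiquitin-system proteins Tnfaip3 and Birc3 complete them. All 10 genes were chosen by name, as the rows whose Entrez gene identifier belongs to one of these symbols. Each was found among the 18631 genes of the deposited data. RNA was measured by polyA-selected sequencing in 2 mouse kidney epithelial cell lines, a line heterozygous for Pkd1 (Pkd1+/-, line name PH) and a line null for it (Pkd1-/-, line name PN). Pkd1 encodes polycystin-1, the protein most often mutated in autosomal dominant polycystic kidney disease. Each line received DMSO, the vehicle, or 50 nM THZ1 for 6 h, giving 4 groups of 2 libraries. THZ1 is a covalent inhibitor of the cyclin-dependent kinase CDK7, which phosphorylates RNA polymerase II during initiation. Both lines were kept in the same medium, which held interferon-γ, insulin, transferrin, selenium, triiodothyronine and fetal bovine serum, so every group had interferon-γ, a cytokine that itself acts on inflammatory genes. Each genotype is 1 line, so genotype and line cannot be told apart. Nothing in the labels says that the 2 libraries of a group came from separate cultures, and the p-values below measure the spread between these libraries, which may be technical.

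NF-kB subunits act as dimers. In resting cells IkB proteins, together with the unprocessed Nfkb1 and Nfkb2 precursors, keep dimers in the cytoplasm, and stimuli such as tumour necrosis factor or interleukin-1 activate the IkB kinases, which mark the IkB proteins for degradation and free the dimers to enter the nucleus. Several genes that NF-kB switches on encode its own brakes, among them Nfkbia, Nfkbie and Tnfaip3, and others encode its own subunits, among them Nfkb2 and Relb, so the RNA of these genes is widely read as a record of NF-kB activity. In kidney tubule cells the pathway is known for driving chemokines, adhesion molecules and other inflammatory genes during injury and in cystic disease.

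The promoters of 3 of the feedback genes are shown because they carry the sequence that the pathway's transcription factor reads. Sequences are from RefSeq on GRCm38.p6, the assembly behind the mm10 build, and run 5′ to 3′ along the gene, ending at the base before its start. Capitals mark matches to the kB consensus motif, searched on both strands. Nfkbia has 1 match at positions -29 to -20 from its start, and its window lies at chr12:55492648-55492897 on the minus strand. Nfkbie has 1 match at -106 to -97, and its window lies at chr17:45555450-45555699 on the plus strand. The Tnfaip3 stretch, chr10:19015411-19015547 on the minus strand, holds 137 bases with matches at -125 to -116 and -12 to -3.
Nfkbia: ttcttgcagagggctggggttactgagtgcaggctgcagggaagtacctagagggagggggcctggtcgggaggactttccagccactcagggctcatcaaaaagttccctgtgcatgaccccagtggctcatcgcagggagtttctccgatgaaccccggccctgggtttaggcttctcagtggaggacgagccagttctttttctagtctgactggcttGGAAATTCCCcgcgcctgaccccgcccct
Nfkbie: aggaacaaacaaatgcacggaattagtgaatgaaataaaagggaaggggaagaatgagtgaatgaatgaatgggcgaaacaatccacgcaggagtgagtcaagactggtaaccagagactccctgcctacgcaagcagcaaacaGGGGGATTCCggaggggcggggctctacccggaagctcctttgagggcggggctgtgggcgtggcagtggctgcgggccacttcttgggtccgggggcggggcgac
Tnfaip3: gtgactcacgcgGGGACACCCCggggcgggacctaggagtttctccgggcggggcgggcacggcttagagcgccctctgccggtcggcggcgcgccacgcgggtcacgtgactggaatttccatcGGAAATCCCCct

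The table of promoters held windows for 8 of the 10 members, all but Nfkb1 and Relb. Across the 250 bases before each start, 1281 of 32851 windows in the whole table, 3.90%, held the kB consensus motif. Among the members it was found in 6 of 11 windows. These belong to 4 genes, which are the 3 above and Nfkb2, whose 3 alternative windows each held at least 1 match. Another window of Tnfaip3, chr10:19011964-19012213, held no match. In the window of Nfkb2 with a match nearest to a start, GGGGCTTTCC stood at -11 to -2 and the palindromic GGGAATTCCC at -39 to -30. The windows of Rela, Nfkbib, Bcl3 and Birc3 held no match to these letters. These matches are descriptions of the sequence and were not used in any comparison of levels.

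Values are FPKM, counts of fragments scaled for transcript length and library depth. They are relative to the other RNA of a library, so a change in the total RNA of a cell would not show in them. The steps between the lowest values in each library correspond to an estimated 17.6 M to 18.4 M fragments a library, so depth was nearly equal across groups. Genes above 0 numbered 15439 in the first null DMSO library, 14900 in the second null THZ1 library and 14007 to 14305 in the others. Replicate libraries correlated across genes at r between 0.997 and 0.998 on the log2(FPKM + 1) scale. Pkd1 itself read 4.58 and 5.30 FPKM in the heterozygous DMSO libraries and 1.69 and 1.32 in the null DMSO libraries, a difference of -1.25 ± 0.10 (log2, SE; limma adjusted p = 1.99e-07), and the lines' libraries did not overlap under THZ1 either. Of 10 kidney epithelial markers 8 averaged at least 1 FPKM, while Cdh1 and Epcam, defining markers of many tubule epithelia, stayed under 1 in every library. Of the 8 tested, 6 were lower and 2 higher in the null line, under DMSO (median -0.53) and under THZ1 (median -0.91). Of 10 leukocyte markers 2 were tested, and Adgre1, Tyrobp and Cd3e were listed at 0 in all libraries. Csf1r ranged from 3.41 to 9.68 FPKM and Cd68 from 1.72 to 4.82. Both were lower in the null line under DMSO, by -0.43 and -0.37, and with THZ1 in the null line Csf1r changed by -0.76 and Cd68 by 0.89. Of 10 fibroblast and mesenchymal markers 4 averaged at least 1 FPKM, and the summed level of the 10 was 39.3 to 43.3 FPKM over the heterozygous libraries and 262 to 318 over the null libraries. These 4 genes were called higher in the null line under DMSO and under THZ1, and Acta2 (means of 7.47 and 109 FPKM under DMSO) and Tagln (19.5 and 120.3) gave most of the sum. The other 6, among them Pdgfra, Col3a1 and Dcn, stayed under 1 FPKM in every library. The part of these markers in the differences between the lines below was not tested.

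All 10 members averaged at least 1 FPKM over the libraries and were among the 10731 genes tested. The lowest member value was 2.03 FPKM, for Birc3 in a THZ1-treated null library. An estimated 95.3 fragments lie behind that value. Rela was the most abundant member in both DMSO groups and in the heterozygous THZ1 group, and its mean in the heterozygous DMSO libraries was above 91.3% of tested genes. Birc3 was the least abundant in the heterozygous groups, at the 11.2 percentile of tested genes under DMSO. In the heterozygous DMSO libraries the order from high to low was Rela, Nfkb2, Nfkb1, Nfkbia, Nfkbib, Relb, Tnfaip3, Bcl3, Nfkbie and Birc3, and Bcl3 and Nfkbie were the only neighbours whose libraries overlapped.

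**Figure D1:**
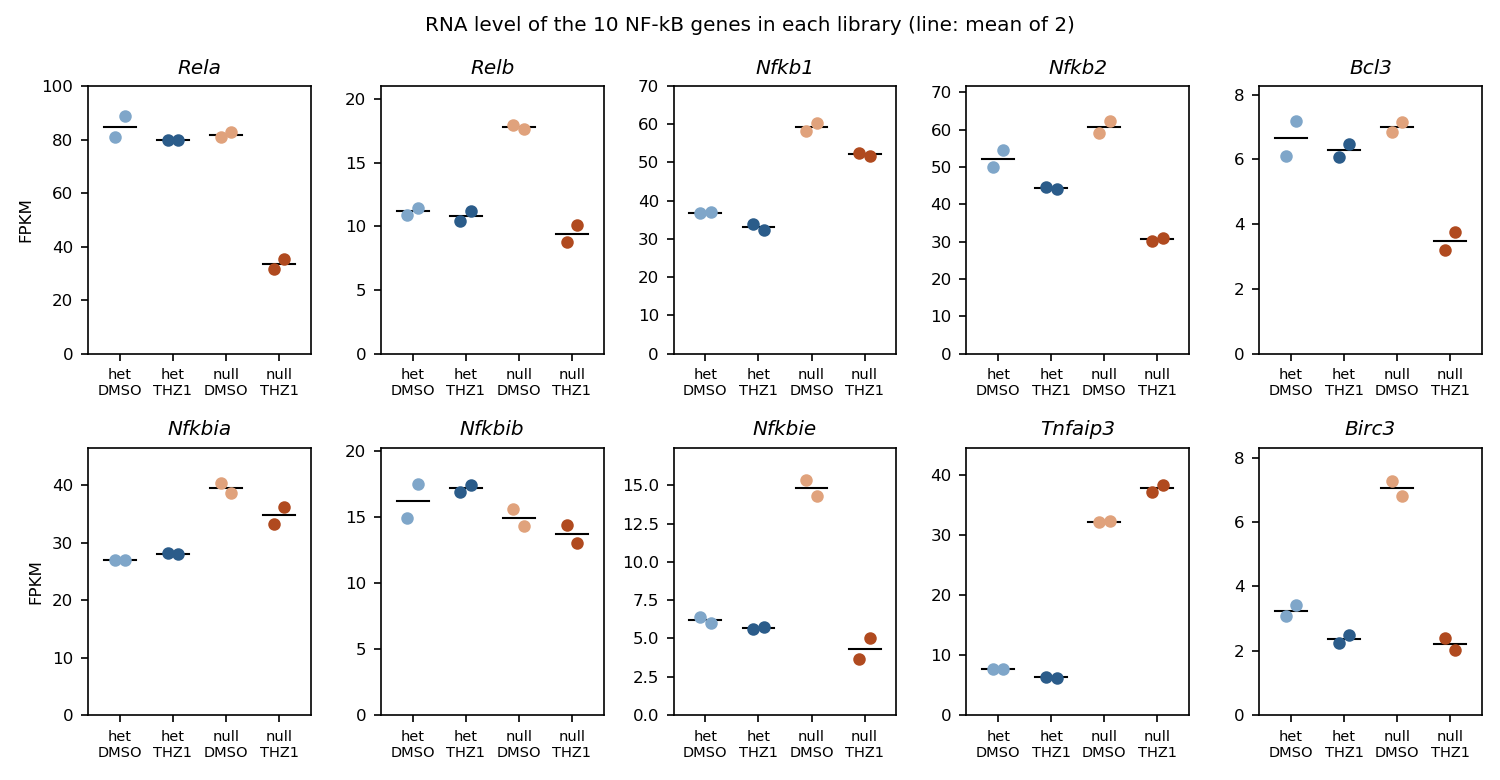
FPKM of the 10 genes (vertical axis, each panel from 0) in the 8 libraries, by line and drug; points are libraries and lines are means of 2. Rela, Nfkb2, Relb, Bcl3, Nfkbie and Birc3 drop in the null line under THZ1 while Tnfaip3 stays near its DMSO level or above it. In the heterozygous line the called changes are falls of 0.33 in Birc3, 0.26 in Tnfaip3, 0.23 in Nfkb2 and 0.15 in Nfkb1 (log2(FPKM + 1)).

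The first comparison asked how the null line differed from the heterozygous line under DMSO. In the null line 7 of the 10 members were higher and none was lower: Tnfaip3, Nfkbie, Birc3, Nfkb1, Relb, Nfkbia and Nfkb2, in order of the size of the difference. Rela, Bcl3 and Nfkbib did not pass the test. The lines differed widely, with 70% of the tested genes called, 29% higher and 41% lower in the null line. The median difference over the members was 0.58 on the log2(FPKM + 1) scale and -0.07 over all tested genes. In bulk RNA, fewer cells that express a gene and less RNA in each cell cannot be told apart.

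Among the subunits, Nfkb1, whose product is processed to the DNA-binding partner of Rela, read 36.7 and 37.1 FPKM in the heterozygous libraries and 58.35 and 60.3 in the null libraries. The null libraries were well above the heterozygous ones, a difference of 0.67 ± 0.04 (log2, SE; limma adjusted p = 2.75e-08). Relb, the transactivating subunit of the non-canonical branch, read 10.93 and 11.45 against 17.97 and 17.7 FPKM, again without overlap, and was 0.63 ± 0.07 higher. Nfkb2, whose product holds Relb in the cytoplasm until processed, differed less, with 49.98 and 54.38 against 59.2 and 62.25 FPKM and a difference of 0.22 ± 0.05 (adjusted p = 0.00182). Rela, the main transactivating subunit of the canonical branch, read 80.83 and 88.69 FPKM in the heterozygous line and 80.79 and 82.73 in the null line. These libraries overlapped, and the difference in Rela had a 95% interval of -0.17 to 0.07.

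Of the IkB genes, Nfkbie stood out in the null line. Nfkbie encodes an inducible IkB protein and read 6.41 and 6.04 FPKM in the heterozygous libraries and 15.32 and 14.29 in the null libraries, a difference of 1.13 ± 0.10 (adjusted p = 5.06e-07). Nfkbia, the fast-responding IkB protein, read 26.93 and 27.06 against 40.36 and 38.63 FPKM and was 0.53 ± 0.05 higher. Nfkbib, an IkB protein whose gene is known to respond less to NF-kB, had overlapping libraries of 14.92 and 17.48 against 15.6 and 14.32 FPKM, with an interval of -0.27 to 0.06. Without the first heterozygous DMSO library the difference in Nfkbib was -0.21 and passed the test (adjusted p = 0.0341). Bcl3, which binds Nfkb1 and Nfkb2 homodimers in the nucleus, also overlapped, with 6.11 and 7.18 against 6.86 and 7.15 FPKM.

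Both induced ubiquitin-system genes were higher in the null line. Tnfaip3, which encodes the ubiquitin-editing brake on signalling to the IkB kinases, read 7.67 and 7.72 FPKM in the heterozygous libraries and 32.09 and 32.34 in the null libraries. Its difference of 1.93 ± 0.05 (adjusted p = 1.21e-11) was the largest among the members, and its mean moved from the 28.4 to the 74.6 percentile of tested genes. Birc3, a ubiquitin ligase of the tumour necrosis factor receptor complexes, read 3.07 and 3.41 against 7.28 and 6.81 FPKM and was 0.92 ± 0.09 higher (adjusted p = 1.07e-06). For each of the 7 called genes both null libraries were above both heterozygous libraries, which held in one direction or the other for 84.5% of all tested genes.

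The second comparison asked what THZ1 did in the heterozygous line. The members moved little: 4 of 10 fell, namely Birc3, Tnfaip3, Nfkb2 and Nfkb1, by 0.33, 0.26, 0.23 and 0.15 on the log2(FPKM + 1) scale, and none rose. Over all tested genes 22.4% were called, 12.2% higher and 10.3% lower, a split of 1306 to 1100 genes that became 753 to 1491 with scaling to the library total. The DMSO and THZ1 libraries did not overlap for 7 members, against 65% of tested genes. The median change over the members was -0.10, against 0.01 over all tested genes.

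Tnfaip3 read 6.36 and 6.16 FPKM under THZ1, below both DMSO libraries, a change of -0.26 ± 0.05 (adjusted p = 0.00577). It was called in all 18 alternative analyses. Birc3 read 2.25 and 2.5 FPKM under THZ1, a change of -0.33 ± 0.09 (adjusted p = 0.0210). Nfkb2 read 44.51 and 44.2 FPKM, also below both DMSO libraries, and Nfkb1 read 33.85 and 32.42. With either THZ1 library left out Tnfaip3 was the only member called, 1 in place of 4, and without the second DMSO library 2 were called. Without the first and the second THZ1 library the change was -0.23 and -0.22 in Nfkb2, -0.18 and -0.12 in Nfkb1 and -0.28 and -0.38 in Birc3, so the sizes stayed close to those from all libraries while the calls were lost. Over all genes 797 and 1048 were then called in place of 2406.

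The other 6 members did not pass the test in the heterozygous line. Rela read 79.9 and 79.67 FPKM under THZ1, and its change had an interval of -0.21 to 0.04. Nfkbia read 28.14 and 28.02, just above its DMSO libraries, with an interval of -0.06 to 0.17. Relb (10.43 and 11.18), Nfkbib (16.9 and 17.45) and Bcl3 (6.08 and 6.47) overlapped their DMSO libraries. Nfkbie read 5.59 and 5.76 FPKM, below its DMSO libraries, with an interval of -0.33 to 0.10.

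The third comparison asked what THZ1 did in the null line. Here 6 members fell by between 0.84 and 1.58 on the log2(FPKM + 1) scale: Nfkbie, Birc3, Rela, Nfkb2, Relb and Bcl3. Tnfaip3 rose, and Nfkb1, Nfkbia and Nfkbib stayed near the middle of all genes. In total 9 of 10 members were called, 1 higher and 8 lower, in a comparison where 75.7% of tested genes were called, 24.6% higher and 51.1% lower. The libraries did not overlap for those 9 members, against 87.4% of tested genes. The median change was -0.85 over the members and -0.17 over all tested genes. Median-of-ratios scaling moved the median of all genes to 0.04 and that of the members to -0.63, with 1 member called higher and 6 lower. It also moved the counts over all genes to 4484 higher and 3840 lower, and upper-quartile scaling to 3295 higher and 4797 lower. Scaling to the library total went the other way, with medians of -0.25 over all genes and -0.92 over the members. With it 1 member was called higher and 9 lower, and 2047 genes higher and 6129 lower. The null DMSO libraries enter this comparison and the first one, so a library that reads high there raises one difference and lowers the other.

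**Figure D2:**
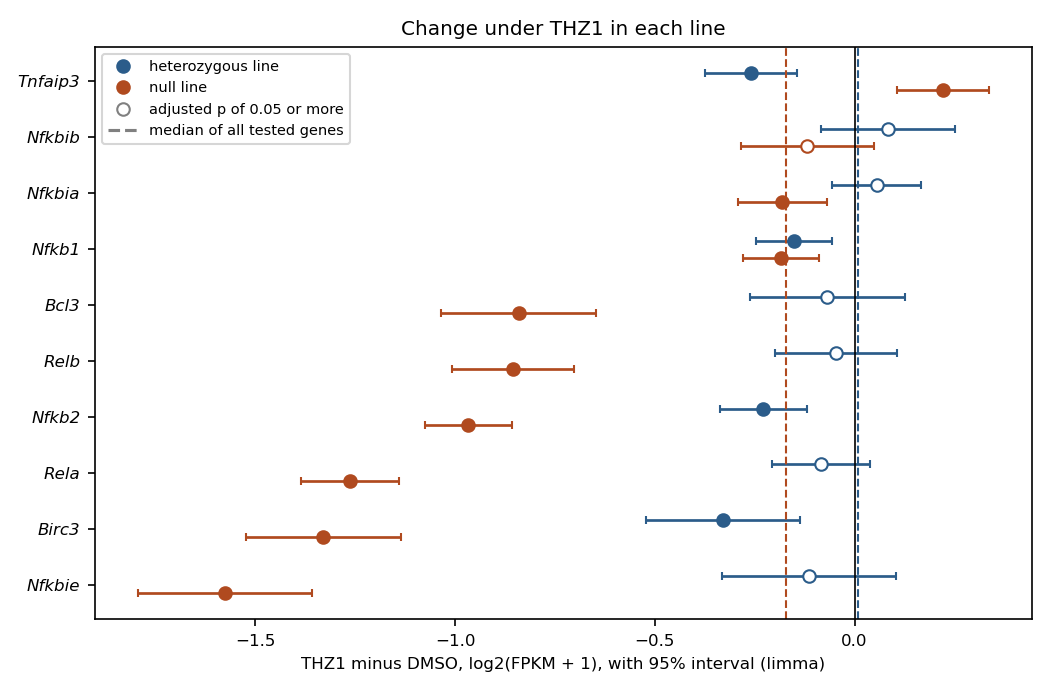
Change under THZ1 (horizontal axis, log2(FPKM + 1)) of each gene in the heterozygous and the null line, with limma 95% intervals; filled points passed an adjusted p under 0.05 and dashed lines are the medians of all tested genes. In the null line 6 genes lie between -1.58 and -0.84, while Nfkb1, Nfkbia and Nfkbib lie close to the dashed median and take small positive values under median-of-ratios scaling.

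Among the subunits Rela fell most. It read 31.7 and 35.36 FPKM under THZ1, against 80.79 and 82.73 under DMSO, a change of -1.26 ± 0.06 (limma adjusted p = 1.47e-09), and its mean went from the 91.5 to the 77.0 percentile of tested genes. Nfkb2 read 30.14 and 31.02 FPKM, a change of -0.97 ± 0.05, and Relb 8.78 and 10.09 FPKM, a change of -0.85 ± 0.07. In all 3 genes the THZ1 libraries lay below every other library of the 8. Nfkb1 behaved otherwise, with 52.45 and 51.73 FPKM under THZ1 against 58.35 and 60.3 under DMSO. Its change of -0.18 ± 0.04 passed the test (adjusted p = 0.00192), but was -0.01 relative to the median of all genes and 0.06, not called, under median-of-ratios scaling (adjusted p = 0.268).

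Among the IkB genes the change differed from gene to gene. Nfkbie fell from 15.32 and 14.29 FPKM to 3.67 and 5.01, a change of -1.58 ± 0.10 (adjusted p = 2.34e-08) that placed it in the lowest 1.34% of tested genes by change. Nfkbia read 33.22 and 36.3 FPKM under THZ1 against 40.36 and 38.63, a change of -0.18 ± 0.05 (adjusted p = 0.00638). That call for Nfkbia was lost without the first DMSO library (adjusted p = 0.0561), without the first THZ1 library (0.0790) and with upper-quartile scaling (0.125), and the change was 0.06 with median-of-ratios scaling. Nfkbib read 14.4 and 13.02 FPKM and overlapped its DMSO libraries, with an interval of -0.28 to 0.05 and a value of 0.11 under median-of-ratios scaling. With scaling to the library total the change in Nfkbib was -0.20 and passed the test (adjusted p = 0.0226). Bcl3 fell to 3.19 and 3.77 FPKM, a change of -0.84 ± 0.09 (adjusted p = 2.19e-06). An estimated 104 and 123 fragments lie behind the 2 THZ1 values of Bcl3.

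Birc3 and Tnfaip3, both high in the null line under DMSO, moved in opposite directions. Birc3 fell to 2.38 and 2.03 FPKM from 7.28 and 6.81, a change of -1.33 ± 0.09 (adjusted p = 3.55e-08), and so lay below the heterozygous DMSO libraries. Tnfaip3 read 37.17 and 38.34 FPKM, above both null DMSO libraries, a rise of 0.22 ± 0.05 (adjusted p = 0.00197). Relative to the median of all genes the change in Tnfaip3 was 0.40. This change was positive and called under every scaling tried, between 0.14 and 0.46. Each scaling is relative to the other RNA of a library, so the amount per cell was not measured. Birc2, a paralogue of Birc3 with a row of its own, read 11.22 and 11.49 FPKM under DMSO and 14.04 and 14.40 under THZ1. How reads that match both genes were assigned is not given in the sources used here.

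The difference between the lines' responses to THZ1 was tested directly, as an interaction. It passed the test for 8 of 10 members, against 60.2% of all tested genes, where 15.1% had a higher and 45.1% a lower response in the null line. That split turned to 3536 higher and 3065 lower genes under median-of-ratios scaling, and was 2467 and 3937 under upper-quartile scaling. Of these 8, 7 responded more negatively in the null line and Tnfaip3 more positively. Its difference of 0.48 ± 0.07 (adjusted p = 0.000144) joins a fall in one line to a rise in the other. Nfkbie had the largest difference, -1.46 ± 0.14, followed by Rela at -1.18 ± 0.08, Birc3 at -1.0 ± 0.13, Relb at -0.81 ± 0.10, Bcl3 at -0.77 ± 0.13 and Nfkb2 at -0.74 ± 0.07. These 6 genes and Tnfaip3 passed the test under all 3 other scalings. Nfkbia differed by -0.24 ± 0.07 (adjusted p = 0.0139), but by 0.00 under median-of-ratios scaling. For Nfkb1 the difference was -0.03, with an interval of -0.17 to 0.10, and it became 0.21 and was called under median-of-ratios scaling (adjusted p = 0.0176). Nfkbib had an interval of -0.44 to 0.03.

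Under THZ1 the lines could also be compared with each other. Tnfaip3 remained far higher in the null line, at 2.42 ± 0.05 (adjusted p = 1.32e-12), and Nfkb1 at 0.64 ± 0.04 and Nfkbia at 0.30 ± 0.05 were higher too. Rela at -1.23 ± 0.06, Bcl3 at -0.70 ± 0.09 and Nfkb2 at -0.52 ± 0.05 were lower. In total 9 of 10 members were called, 3 higher and 6 lower, where 83.2% of tested genes were called, 25.1% higher and 58.1% lower. The libraries of the lines did not overlap for those 9 members, against 92% of tested genes. The remaining 3 lower calls depended on scaling. Under median-of-ratios scaling Nfkbie was -0.08, Nfkbib -0.02 and Relb 0.10, none of them called. The members then divided into 3 higher and 3 lower, with 4323 higher and 4428 lower over all genes. Scaling to the library total kept the members at 3 higher and 6 lower. The calls of Relb and Nfkbie were also lost without the first null THZ1 library (-0.09 and -0.15). Birc3, more than 0.9 higher in the null line under DMSO, had an interval of -0.27 to 0.12 under THZ1.

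The order of the levels changed with line and drug. In the null DMSO libraries Rela came first, then Nfkb2 and Nfkb1 with overlapping libraries, then Nfkbia and Tnfaip3. Under THZ1 in the null line Nfkb1 came first and Tnfaip3 second, followed by Nfkbia and Rela, whose libraries overlapped. Nfkbie and Bcl3 overlapped near the bottom, above Birc3.

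Ratios within a library do not depend on the scaling of libraries. The ratio of Nfkb1 to Rela RNA was 0.454 and 0.418 in the heterozygous DMSO libraries, 0.424 and 0.407 in the heterozygous THZ1 libraries, 0.722 and 0.729 in the null DMSO libraries, and 1.65 and 1.46 in the null THZ1 libraries. Only in the null THZ1 libraries did Nfkb1 RNA exceed Rela RNA per length. The ratio of Nfkbia, the inhibitor, to Rela averaged 0.319, 0.352, 0.483 and 1.04 over the same 4 groups. That of Tnfaip3 to Rela averaged 0.0910, 0.0785, 0.394 and 1.13. The 2 IkB genes Nfkbie and Nfkbia parted, with a ratio of Nfkbie to Nfkbia of 0.380 and 0.370 in the null DMSO libraries and 0.110 and 0.138 in the null THZ1 libraries. Nfkb2 to Nfkb1 went from 1.41 ± 0.0735 (SD, n = 2) in the heterozygous DMSO group to 0.587 ± 0.0177 in the null THZ1 group. With 2 libraries against 2, an exact permutation test of a ratio cannot give a two-sided p below 0.333, so the ratios are given without a test.

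**Figure D3:**
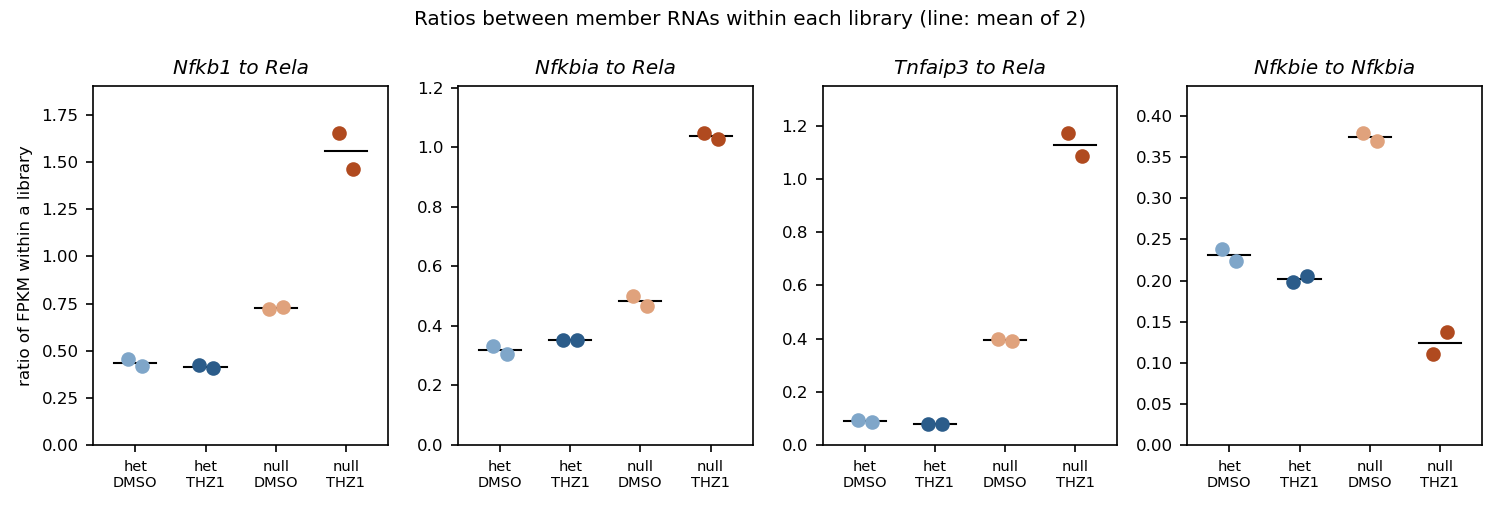
Ratio of FPKM values within a library (vertical axis, each panel from 0) for 4 pairs of genes, by line and drug; points are libraries and lines are means of 2. The 3 ratios to Rela are highest in the null THZ1 libraries, at means of 1.56, 1.04 and 1.13, and Nfkbie to Nfkbia is lowest there.

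The makeup of the subunit RNA shifted in the same way. Rel, the fifth subunit gene, which is best known from lymphoid cells, was low at 1.24 to 3.10 FPKM and was added to the 4 member genes for this count. Rela made up 45.4% ± 0.730 (SD, n = 2) of the summed FPKM of the 5 genes in the heterozygous DMSO group and 47.1% ± 0.187 with THZ1. In the null line it made up 36.9% ± 0.200 under DMSO and 26.1% ± 1.20 under THZ1. The share of Nfkb1 went from 19.8% and 19.6% in the heterozygous groups to 26.8% and 40.6% in the null groups. Nfkb2 ranged between 23.8% and 28.0% over the group means and Relb between 6.00% and 8.06%. The summed FPKM of the 5 genes was 186 ± 9.23 and 169 ± 1.02 in the heterozygous line and 221 ± 4.91 and 128 ± 4.01 in the null line, in each case under DMSO and then THZ1.

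**Figure D4:**
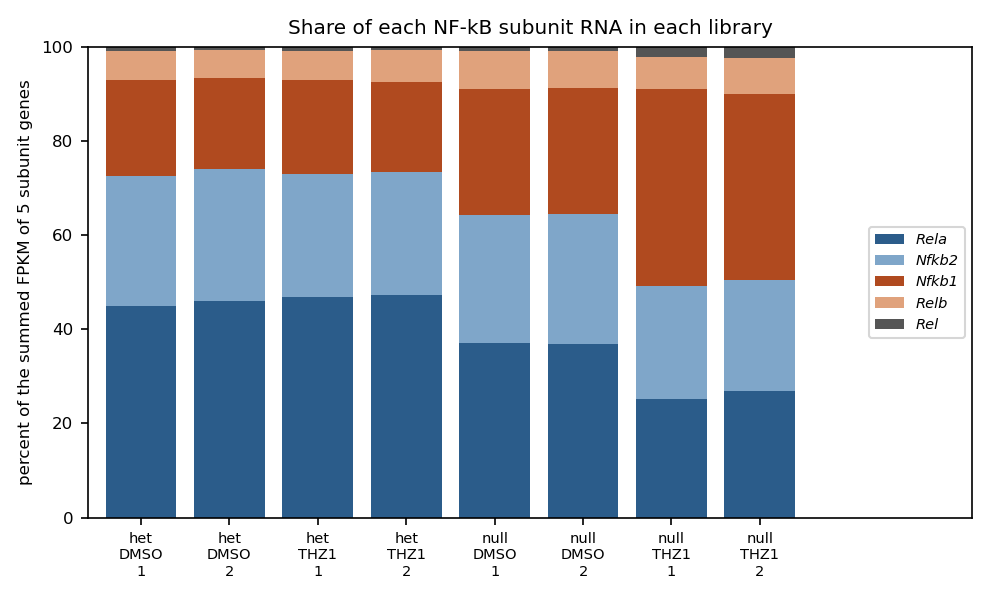
Share of each subunit gene in the summed FPKM of the 5 subunit genes (vertical axis, percent), 1 bar per library, by line, drug and replicate. The Rela share is below 30% and the Nfkb1 share near 40% in both null THZ1 libraries.

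Across the 8 libraries the members fell into patterns that can be described by correlation, with the caution that all points come from the same 4 groups and that a difference between groups alone gives a high r. Relb and Nfkbie were most alike (Pearson's r = 0.995), then Rela and Bcl3 (0.983). Nfkb1 and Tnfaip3 correlated at 0.960, and Rela and Tnfaip3 at -0.628. Nfkb1 and Rela, the genes for the commonest dimer, correlated at -0.395. The most similar genes were sought among those of at least 10 FPKM on average. The members, predicted or unnamed genes, Rik clones and pseudogenes were left out of that search. The gene most like Rela was Scnm1 (r = 0.999), the one most like Tnfaip3 was Hspa9 (0.999), and the one most like Nfkbie was Cdc42se1 (0.996). Birc3 was closest to Cxcl10 (0.995) and then, at nearly equal values, to Cxcl16 (0.990) and Rab11b (0.990). Cxcl10 and Cxcl16 are chemokine genes and Rab11b is not. For Nfkb2 the closest gene was Zyx (0.997), for Nfkbia Tulp3 (0.996) and for Nfkbib Kcmf1 (0.962).

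The remaining genes of the pathway were read from 4 lists with 103 genes, described by counts beside the shares of all genes above. Of 33 tested kinases, adaptors and receptors, which carry the signal to the IkB kinases, 14 were higher and 6 lower in the null than in the heterozygous line under DMSO. With THZ1 2 rose and 5 fell in the heterozygous line, and 6 rose and 23 fell in the null line (9 and 16 under median-of-ratios scaling). Over all tested genes 12.2% rose and 10.3% fell in the heterozygous line, and 24.6% rose and 51.1% fell in the null line. The median change of the 33 genes in the null line was -0.34, against -0.17 over all genes. Tab1, an adaptor of the kinase upstream of the IkB kinases, read 11.83 and 12.51 FPKM under DMSO and 2.38 and 2.61 under THZ1 in the null line, a change of -1.91 ± 0.07 (adjusted p = 2.49e-10). In the heterozygous line Tab1 read 13.68 and 14.21, then 10.64 and 10.86. Ikbke, an IkB kinase relative, fell by 1.70 and Traf2, a receptor adaptor, by 0.98 in the null line.

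Of 21 tested ubiquitin-system and other negative regulators, 6 rose and 11 fell with THZ1 in the null line, and 9 rose and 7 fell under median-of-ratios scaling. Tank, which binds the Traf adaptors, fell by 1.05, Pdlim2, which promotes the turnover of nuclear Rela, by 1.46, and Otud7b, a deubiquitinase, by 0.53. In the heterozygous line 3 of the 21 rose and 1 fell. Of the 5 other tested subunit and IkB-family genes, 3 rose and 1 fell in the null line: Rel rose by 0.47 ± 0.10 (adjusted p = 0.00108), and Nfkbid and Nfkbiz, inducible nuclear IkB proteins, by 0.30 and 0.19. Nfkbid was low in the null line, at 0.69 and 0.9 FPKM under DMSO and 1.33 and 1.1 under THZ1. The rise in Nfkbiz was not called with scaling to the library total.

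Target genes outside the 10 members formed the last list. Of 30 tested targets, 24 were higher and 5 lower in the null than in the heterozygous line under DMSO. Over all tested genes 29% were higher and 41% lower. The 3 targets with the smallest adjusted p were Lcn2, which encodes a secreted marker of tubule injury, at 3.83, the complement gene C3 at 2.42 and the macrophage growth factor gene Csf1 at 1.34. With THZ1 15 of the 30 rose and 8 fell in the null line, against 24.6% and 51.1% of all tested genes. The median change was 0.14 over the targets and -0.17 over all tested genes. The counts of targets were 21 and 7 under median-of-ratios scaling, with a median of 0.38, and 12 and 9 with scaling to the library total, with a median of 0.06. Icam1, an adhesion molecule gene, read 6.28 and 6.76 FPKM under DMSO and 18.99 and 19.43 under THZ1, a rise of 1.43 ± 0.07 (adjusted p = 3.85e-09). The chemokine genes Cxcl1 and Cx3cl1 rose by 0.90 and 0.87. In the heterozygous line Icam1 read 4.67 and 4.56 FPKM under DMSO and 7.18 and 6.32 under THZ1. Cx3cl1 read 22.92 and 25.55, then 33.64 and 31.61, so both were higher under THZ1 in that line too. Cxcl1 read 44.18 and 46.47, then 36.73 and 39.45. Some other cytokine and chemokine genes of the list, chosen here after their values were seen, fell in the null line. Il34 fell by 1.52, Cxcl10 by 0.98, Cxcl5 by 0.90 and Cxcl16 by 0.67. Cxcl2 and Ccl2, chosen in the same way, rose there. Cxcl2 read 4.03 and 3.05 FPKM under DMSO and 17.16 and 12.5 under THZ1. Ccl2 read 52.64 and 44.24, then 99.89 and 84.93. In the heterozygous line 5 targets rose and 11 fell, against 12.2% and 10.3% of all tested genes. The falls were led by Lif, Ptgs2 and Ccl2 with changes of -0.49, -0.61 and -0.51. The difference between the lines' responses was called as higher in the null line for 14 of the 30 and as lower for 4, with Ccl2 at 1.42 ± 0.11 (adjusted p = 1.02e-06). Over all tested genes 15.1% were called higher and 45.1% lower in that comparison. Whether the lists differ from each other or from other genes was not tested.

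**Figure D5:**
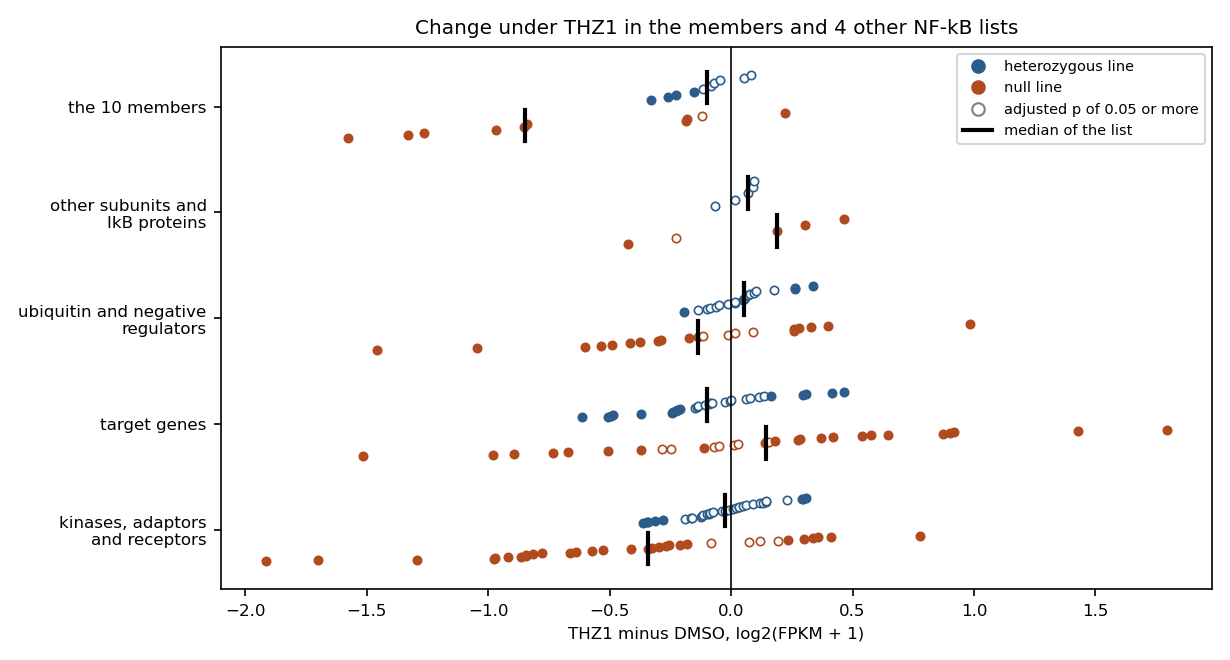
Change under THZ1 (horizontal axis, log2(FPKM + 1)) of the 10 genes and of the tested genes of 4 other NF-kB lists in each line; points are genes, filled where the adjusted p was under 0.05, and bars are list medians. In the null line the median is -0.85 for the 10 genes, -0.34 for kinases, adaptors and receptors, and 0.14 for target genes; that of the negative regulators, -0.14, turns to 0.09 under median-of-ratios scaling.

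On mm10 Rela (identifier 19697) spans chromosome 19 from 5637442 to 5648134 and Nfkb2 (18034) chromosome 19 from 46300994 to 46312400. Nfkb1 (18033) spans chromosome 3 from 135584655 to 135691969. Relb (19698), Bcl3 (12051) and Nfkbib (18036) lie on chromosome 7, from 19606217 to 19629438, from 19808462 to 19822824 and from 28758251 to 28766644. Birc3 (11796) lies on chromosome 9 from 7847468 to 7873205, Tnfaip3 (21929) on chromosome 10 from 19000910 to 19015410, Nfkbia (18035) on chromosome 12 from 55489409 to 55492647 and Nfkbie (18037) on chromosome 17 from 45555700 to 45563169. The span of Nfkb2 overlaps Psd on the other strand, and that of Nfkbib overlaps Ccer2. Nfkb1 also overlaps Gm46827, Bcl3 overlaps Gm16174 and Nfkb2 overlaps 4833438C02Rik, none of which has a row in the deposited data. Pkd1 overlaps Tsc2 on the other strand. Psd read 2.37 to 3.52 FPKM and Ccer2 0.00 to 0.08 in the 8 libraries. Strand handling is not given in the sources used here, so reads in the overlaps cannot be told apart.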

How the data were processed

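The authors deposited 1 table of FPKM values per library, 8 in all. The submitters' processing notes name Bowtie2, DESeq2 and the mm10 build, without roles or versions, while no counter, annotation or strand setting is named in the sources used here. Libraries were grouped by the line and drug in their labels. Symbols were matched by Entrez identifier to RefSeq genes of GRCm38.p6, for 18592 of 18631 genes.

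Values were tested as log2(FPKM + 1) with limma 3.58.1 in R 4.3.3 (trend in the prior spread) on the 10731 genes averaging at least 1 FPKM. The 8 libraries entered one model of 4 group means (residual degrees of freedom 4), without covariates or further scaling. Adding 1 understates the change of low genes. A gene was called at a Benjamini-Hochberg adjusted p under 0.05 over all tested genes, in 5 comparisons. The fit was tested on simulated data. Depth was estimated from the steps of values between 0.06 and 0.4 FPKM in transcripts of 500 to 2500 bases. Levels, ratios, shares and correlations were computed in Python 3.11.15. Alternatives were 3 scalings, 2 pseudocounts, 2 filters, no trend, a replicate block, separate fits of the groups compared, and each library left out.

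The members and the 4 lists were chosen with earlier results of these data known. From each list the text names up to 3 genes with the smallest adjusted p in the more frequent direction, Rel, Birc2 and Pkd1 being named as references, and, for 7 members, genes most correlated with them; those of the other members are not reported here.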

Additional observations from a re-analysis of the deposited data

Results flagged for a closer look

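For 8 of the 10 genes the response to THZ1 (log2(FPKM + 1), THZ1 minus DMSO) differed between the lines by the limma test of the difference itself, given here as null minus heterozygous. The values were -1.46 for Nfkbie, -1.18 for Rela, -1.0 for Birc3, -0.81 for Relb, -0.77 for Bcl3, -0.74 for Nfkb2, -0.24 for Nfkbia and 0.48 for Tnfaip3. By the same test 60.2% of all tested genes differed, and genotype and line cannot be told apart. The call for Nfkbia was lost under median-of-ratios scaling (0.00432) and upper-quartile scaling (-0.123). The groups of 2 libraries are too small for a check of single outlying libraries.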

How the results depend on the processing

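Among the alternative values for single genes, 835 kept direction and call, 29 lost the call, 3 gained it and 18 changed sign. Most sign changes came with another scaling of the libraries. Under median-of-ratios scaling the signs turned for Nfkb1 (0.0595), Nfkbia (0.0611) and Nfkbib (0.114) with THZ1 in the null line, for Relb (0.101) and Birc3 (0.141) between the lines under THZ1, for Nfkb1 (0.208), Nfkbia (0.00432) and Nfkbib (0.0292) in the difference between responses, and for Rela (0.0125) between the lines under DMSO. Upper-quartile scaling turned Rela (0.0151) between the lines under DMSO, Birc3 (0.0508) between them under THZ1 and Nfkb1 (0.0803) in the difference between responses. Leaving out 1 library gave ranges across 0 between the lines under DMSO for Rela (-0.116 to 0.0162), Nfkbib (-0.213 to 0.00246) and Bcl3 (-0.0314 to 0.171), with THZ1 in the heterozygous line for Nfkbib (-0.0242 to 0.191) and Bcl3 (-0.170 to 0.0326), and between the lines under THZ1 for Birc3 (-0.155 to 0.00313). With THZ1 in the heterozygous line, leaving out 1 library gave 1 to 4 called members in place of 4 and 797 to 2534 called genes in place of 2406, and testing without a filter gave 1309. The cause was not tested. Requiring a mean of 5 FPKM removed Birc3. DESeq2 was not run, since no counts were used.

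With the replicate number as a block the called members were 7, 4, 9, 9 and 8 in the 5 comparisons, as without it, and 7502, 2387, 8112, 8920 and 6461 of all genes were called. Replicate differences of same-numbered libraries correlated at -0.0936 to 0.139 between groups. These correlations cannot show whether same-numbered libraries shared a culture or a batch, and the labels give only a shared number.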
